A study of Mus musculus with 8 samples.

Results

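Messenger RNA of 7 tetraspanins, Cd9, Cd81, Cd82, Cd63, Cd37, Cd53 and Cd151, was followed in mouse Th1 cells after knockdown of Pcbp1 and after iron chelation. The 7 genes are listed members of the tetraspanin family, taken from 14455 genes with an assignable line in the deposited per-library table. The family was chosen by the knockdown's own values, because Cd9 had the largest log2 fold change upward there. All values of the knockdown contrast are therefore given for these genes as a description, without p-values, and their calls there count as no evidence. By that measure Cd9 stood first at 3.55, and the next gene, the predicted gene Gm11189, stood at 3.27.

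The cells were CD4 T cells of C57BL/6 mice, stimulated through CD3 and CD28 and driven to the Th1 fate by 2 ng/ml of IL-12 and 5 µg/ml of an antibody to IL-4. All 8 libraries share these culture conditions, and they form 4 groups with 2 libraries each. The first pair of groups was transduced with a short hairpin RNA against Pcbp1 or with a scrambled hairpin, and its total RNA was depleted of ribosomal RNA. The second pair was treated with CPX (ciclopirox olamine, an iron chelator) or with DMSO, and its polyA RNA was sequenced. The sources used here do not give the hairpin sequence, the number of hairpins, the CPX dose or the times. They do not say whether replicates came from separate cultures, so the spread and the p-values cover these libraries only. In the CPX experiment the spread may be technical. In the hairpin experiment CD8 T cell markers differed widely by replicate number, alike in both groups, and the reported fit does not take this into account. The comparisons are the Pcbp1 hairpin against the scrambled hairpin and CPX against DMSO. Levels are compared within an experiment, because RNA selection and the deposited scale differ between the experiments.

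Tetraspanins are small membrane proteins that cross the membrane several times, expose a small and a large loop outside the cell, and gather integrins and other receptors into patches of the membrane. On T cells several of them act as costimulatory molecules and take part in adhesion and in the contact with the antigen-presenting cell, and CD9, CD63 and CD81 are widely used as markers of extracellular vesicles. CD37 and CD53 are made mainly by blood cells. CD63 is mostly found in late endosomes and lysosomes, CD81 is widely made and serves hepatitis C virus as an entry receptor, CD82 is also known as a suppressor of metastasis, and CD151 binds the laminin-binding integrins.

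The promoters of Cd9 and Cd53 are shown because these genes had the largest difference upward and the largest downward among the 7 after the knockdown. Both are RefSeq sequences of build GRCm38.p6, written 5′ to 3′ on the gene's strand, from 250 bases before the transcription start to 50 after it. Capitals mark matches to the GC box GGGCGG on either strand, the only motif searched. The Cd9 promoter lies at chr6:125494711-125495010 and the Cd53 promoter at chr3:106790100-106790399, both on the minus strand.
Cd9: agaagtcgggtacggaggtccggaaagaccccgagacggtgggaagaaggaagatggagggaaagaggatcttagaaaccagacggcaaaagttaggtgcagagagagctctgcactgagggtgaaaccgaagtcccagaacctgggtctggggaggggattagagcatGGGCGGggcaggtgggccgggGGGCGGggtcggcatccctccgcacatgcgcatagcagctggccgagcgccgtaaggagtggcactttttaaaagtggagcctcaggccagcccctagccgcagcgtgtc
Cd53: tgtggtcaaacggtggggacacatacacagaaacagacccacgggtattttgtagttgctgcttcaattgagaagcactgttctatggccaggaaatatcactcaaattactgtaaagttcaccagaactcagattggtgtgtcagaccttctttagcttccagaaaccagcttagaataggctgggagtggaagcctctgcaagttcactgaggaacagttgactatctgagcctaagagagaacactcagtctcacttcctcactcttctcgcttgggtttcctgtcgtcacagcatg

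The Cd9 promoter held 2 GC boxes and 61.3% G or C, and the Cd53 promoter held 0 boxes and 46.3% G or C. A GC box was present in 35.7% of 32851 promoters of the same length. Among the other members, the first listed promoter of Cd81 held 3 boxes, those of Cd82 and Cd151 held 2 each, that of Cd37 held 1 and that of Cd63 held 0. A match describes letters in this window and no more.

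The libraries of the hairpin experiment held 14174293 to 15518303 reads assigned to genes, and those of the CPX experiment held 19193784 to 19662145 units of a rescaled table. RPM (reads per 1e+06) is a gene's value over its library's total, times 1e+06. The targeted transcript, Pcbp1, was measured at 15.1 and 16.1 RPM with its hairpin, against 44.0 and 51.7 RPM with the scrambled hairpin (log2 fold change -1.73, SE 0.12, edgeR, adjusted p = 3.18e-05). Its level was 238 and 199 RPM with CPX, against 506 and 538 RPM with DMSO. Replicates correlated across genes, which are not independent, at 0.992 for the Pcbp1 hairpin, 0.993 for the scrambled hairpin, 0.954 for CPX and 0.985 for DMSO (Pearson, log2 scale). All 11 T cell markers examined (Cd3e, Cd4 and Thy1 among them) and all 5 Th1 markers reached 1 RPM in every library. Among the Th1 markers, Ifng had 24818 and 18990 RPM with the Pcbp1 hairpin, against 50383 and 40954 RPM with the scrambled hairpin, and 1106 and 4983 RPM with CPX, against 14026 and 23804 RPM with DMSO. Tbx21, the master regulator of the Th1 fate, had 58.1 and 46.9 RPM with the Pcbp1 hairpin, against 41.3 and 36.4 RPM with the scrambled hairpin, and 84.4 and 95.2 RPM with CPX, against 56.8 and 137 RPM with DMSO. With the Pcbp1 hairpin Il12rb2 and Cxcr3 were not lower than with the scrambled hairpin, and Il18r1 overlapped between these groups. Il12rb2 was lower with CPX, at 24.1 and 31.1 RPM, against 69.4 and 172 RPM with DMSO. Cxcr3 was lower too, at 13.5 and 14.8 RPM with CPX, against 98.5 and 65.9 RPM with DMSO, while Il18r1 overlapped. In bulk RNA, fewer cells that make a transcript and less transcript per cell cannot be told apart.

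After the knockdown, Cd9 was 11.7-fold higher and Cd53 was 2.61-fold lower, while Cd82, Cd81 and Cd151 lay within 1.15-fold of the scrambled libraries. Cd9, which associates with integrins and costimulates T cells, had 127 and 194 RPM in the Pcbp1 hairpin libraries, against 9.74 and 15.8 RPM in the scrambled libraries. The groups did not overlap, and the lower Pcbp1 hairpin library was far above the higher scrambled library. The log2 fold change was 3.55 (SE 0.26, edgeR), and it ran from 3.18 to 3.94 as each library was left out in turn. The authors' deposited table gives 2.91 (SE 0.37), while DESeq2 run here on the counts gave 3.54 (SE 0.47). The reason for this difference was not tested.

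Cd53, a tetraspanin of leukocytes, had the highest level per kb of exon among the 7 in every group. It had 1137 and 1281 RPM with the Pcbp1 hairpin, against 2811 and 3041 RPM with the scrambled hairpin. Both Pcbp1 hairpin libraries were below both scrambled libraries, with a log2 fold change of -1.38 (SE 0.10). The authors' deposited table gives -1.37 (SE 0.09) for Cd53.

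Cd37, the other leukocyte tetraspanin, had 13.0 and 11.2 RPM with the Pcbp1 hairpin, against 14.9 and 15.2 RPM with the scrambled hairpin. The difference was small and the groups did not overlap (log2 fold change -0.42, SE 0.13). Cd82 had 337 and 364 RPM with the Pcbp1 hairpin, against 296 and 311 RPM with the scrambled hairpin. Its groups did not overlap in RPM, but after TMM scaling of the libraries the log2 fold change was only 0.10 (SE 0.072).

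Cd81 had 19.8 and 21.5 RPM with the Pcbp1 hairpin, between the 18.8 and 23.8 RPM of the scrambled libraries. Cd151 had 6.19 and 6.43 RPM with the Pcbp1 hairpin, against 6.77 and 6.70 RPM with the scrambled hairpin, a log2 fold change of -0.20 (SE 0.16). Cd63 was represented by 2 and 10 reads in the Pcbp1 hairpin libraries, against 6 and 2 reads in the scrambled libraries. No difference in Cd63 was detectable at this depth, and it was the one member that did not pass the filter of 1 RPM in 2 libraries.

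Of the 7 members 6 entered the edgeR fit of 11575 genes, and 3 of them were called at an adjusted p under 0.05, Cd9 upward and Cd53 and Cd37 downward. Of all tested genes 56.0% were called, 29.3% upward and 26.7% downward. Nothing is read from the members' calls or their count, since the contrast was used to pick the family. The Cd37 call was absent with DESeq2, with limma (which called Cd82 upward in its place), and without scrambled replicate 1, scrambled replicate 2 or Pcbp1 hairpin replicate 2.

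**Figure D1:**
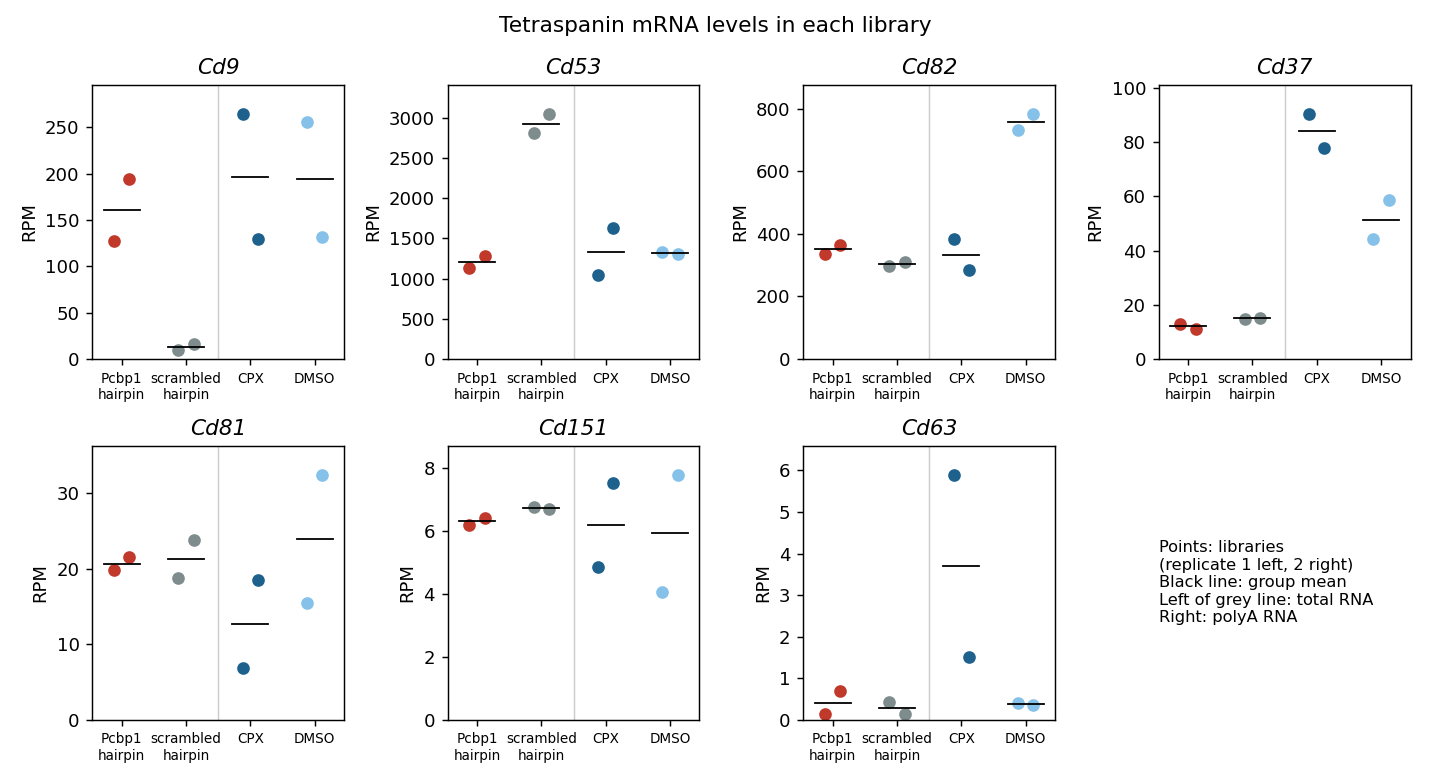
RPM (vertical axes, linear from 0) of each tetraspanin in each library, by group, with the group mean as a black line. Cd9 reached 127 and 194 RPM with the Pcbp1 hairpin, against 9.74 and 15.8 RPM with the scrambled hairpin, while its CPX and DMSO libraries overlapped.

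Cd9 has a processed pseudogene, Cd9-ps, on chromosome 7 (41682658 to 41683307, GRCm38), and reads of the pair cannot be parted with certainty. Cd9-ps had 34 reads in each Pcbp1 hairpin library, against 2 and 8 reads in the scrambled libraries. These were 1.22% to 3.54% of the reads of Cd9 in the 4 libraries. In the CPX experiment Cd9-ps was listed at 0 in all 4 libraries. Platelets carry much CD9, and the platelet genes Pf4 and Ppbp had a mean signal of 0 in both of the authors' deposited tables. Of the 7 listed platelet and megakaryocyte genes 2 had an assignable line. Itga2b had 0.773 and 0.559 RPM with the Pcbp1 hairpin, against 1.27 and 1.33 RPM with the scrambled hairpin, and Gp1ba had 1.42 and 1.26 RPM with the Pcbp1 hairpin, against 0.917 and 0.489 RPM with the scrambled hairpin. The sum of both was 1.82 to 2.19 RPM in either hairpin group, and it was 2.87 to 11.8 RPM with CPX, against 0.563 to 0.814 RPM with DMSO. The part of such cells in the Cd9 values was not tested. The pair of CD8 T cell markers differed by replicate and not by hairpin, with a sum of 92.0 and 11.6 RPM in Pcbp1 hairpin replicates 1 and 2, against 90.5 and 11.9 RPM in scrambled replicates 1 and 2.

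With CPX, Cd82 fell, while Cd9 and Cd53 did not differ beyond the spread between replicates. Cd63 reached 1 RPM in the CPX libraries and in no DMSO library. Cd82 had 382 and 283 RPM with CPX, against 733 and 782 RPM with DMSO. Both CPX libraries were below both DMSO libraries, a 2.30-fold fall (log2 fold change -1.20, SE 0.22, limma, adjusted p = 0.00942). The log2 fold change ran from -1.42 to -0.99 as each library was left out in turn. The call was lost without DMSO replicate 2 (-1.16, SE 0.41). In a fit without DMSO replicate 1 (-1.25) or 2, only the CPX libraries gave a spread within a group. They differed more from each other than the DMSO libraries did. The cause of the lost call was not tested. The authors' deposited table gives -1.14 (SE 0.35) for Cd82.

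Cd63 had 5.89 and 1.51 RPM with CPX, against 0.407 and 0.358 RPM with DMSO. The CPX libraries differed from each other by 3.91-fold, and Cd63 passed the filter only through them, so its tested difference had to point upward. On the log2(RPM + 0.5) scale the difference was 2.02 (SE 0.56, limma, adjusted p = 0.0337), and it was 2.69 with a pseudocount of 0.1 and 1.14 with a pseudocount of 2. The authors' deposited table gives 3.08 (SE 0.69). The call was lost with a pseudocount of 2 (adjusted p = 0.0604), with no filter (0.0581), with quantile normalization (0.146) and without DMSO replicate 1 (0.0501) or 2 (0.0525), and Cd63 was not tested without either CPX library or with a filter of 5 RPM.

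Markers of macrophages and monocytes, which carry much CD63, moved the same way. The 3 of 7 listed markers with an assignable line (Itgam, Cd68 and Emr1) summed to 46.2 to 67.3 RPM with CPX, against 2.70 to 4.71 RPM with DMSO. They were not alone in this. The sums of the B cell, dendritic, platelet and fibroblast markers were higher with CPX too, and that of the CD8 T cell markers was lower. The defining macrophage markers Csf1r and Lyz2 had mean signals of 1.77 and 0.259 in the authors' deposited table for CPX. These are normalized reads averaged over the CPX and DMSO libraries, not RPM, and both were near 0. The part of macrophages or other such cells in the Cd63 value was not tested.

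Cd37 had 90.3 and 77.8 RPM with CPX, against 44.3 and 58.6 RPM with DMSO. The groups did not overlap, but the difference did not pass (log2 fold change 0.71, SE 0.25, limma, adjusted p = 0.0662). It passed with TMM scaling (0.84, adjusted p = 0.0377), with quantile normalization (0.95, adjusted p = 0.0282) and without CPX replicate 2 (0.82, adjusted p = 0.0484). The B cell markers, of which 2 of 6 had an assignable line, summed to 2.29 to 2.70 RPM with CPX, against 0.512 to 0.661 RPM with DMSO. Of the B cell markers without such a line, Ms4a1 had a mean signal of 0 and Cd22 of 0.479 in the authors' deposited table for CPX. Pax5 had 6.54 and Blk 4.5 there. These mean signals are normalized reads averaged over the CPX and DMSO libraries, not RPM. They cannot be set beside the sums above and do not compare CPX with DMSO. The part of B cells in the Cd37 value was not tested.

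Cd9 had 264 and 129 RPM with CPX, against 256 and 132 RPM with DMSO. The groups overlapped entirely, with replicate 1 high and replicate 2 low in both, and the log2 fold change was 0.01 (SE 0.46, limma, adjusted p = 0.990). It ran between -0.51 and 0.52 as each library was left out in turn. Cd53 had 1038 and 1624 RPM with CPX, on both sides of the 1328 and 1300 RPM with DMSO (log2 fold change -0.02, SE 0.26, limma, adjusted p = 0.963). Neither gene passed in any alternative, and the sign of both depended on the libraries used.

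Cd81 had 6.83 and 18.5 RPM with CPX, against 15.5 and 32.4 RPM with DMSO, a log2 fold change of -0.96 that did not pass (SE 0.59, limma, adjusted p = 0.228). The replicates of each group differed by at least 2.09-fold, and the groups overlapped. Cd151 had 4.85 and 7.54 RPM with CPX, against 4.07 and 7.78 RPM with DMSO, and its groups overlapped (log2 fold change 0.09, SE 0.43, limma, adjusted p = 0.876).

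All 7 members entered the limma fit of 11466 genes for CPX, and 2 were called, Cd82 downward and Cd63 upward. Of all tested genes 44.7% were called, 19.9% upward and 24.8% downward. Since Cd63 could enter only through its CPX libraries, its call counts for nothing beside that share, and Cd82 is the 1 call that the filter did not favour. The median log2 fold change of all genes was -0.12, and TMM scaling moved it to 0.00. Relative to that median Cd82 stood at -1.08, Cd63 at 2.14 and Cd37 at 0.83. Without DMSO replicate 1 or 2, 2535 or 2785 genes were called in place of 5124.

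**Figure D2:**
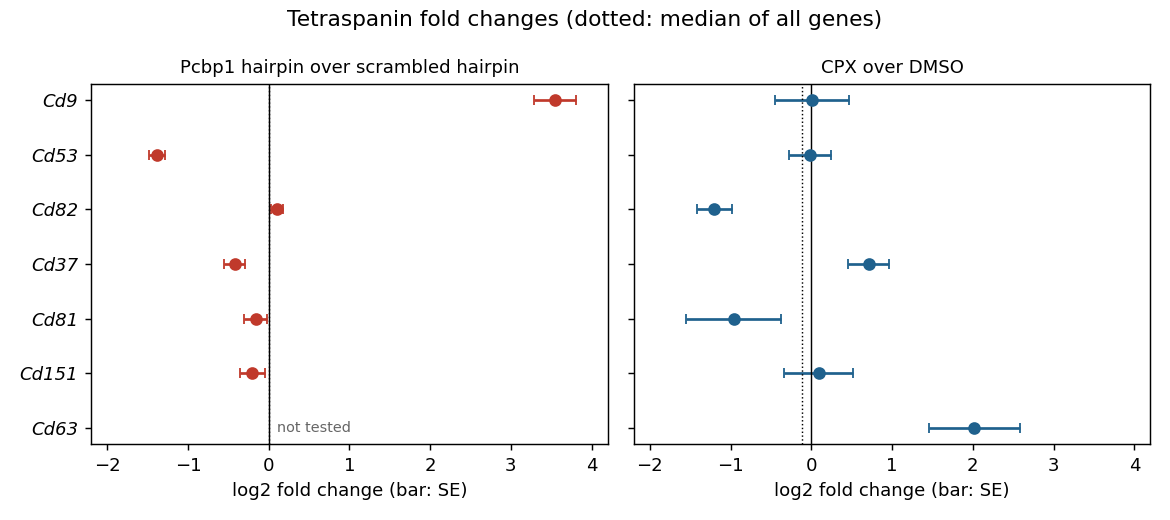
Log2 fold changes (horizontal axes) of the tetraspanins with the Pcbp1 hairpin over the scrambled hairpin and with CPX over DMSO, with bars of 1 SE and the median of all genes dotted. Cd9 stood at 3.55 after the knockdown and at 0.01 with CPX, and Cd82 at 0.10 and -1.20.

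The members that stood out differed between the perturbations. Cd9 was at 3.55 after the knockdown and at 0.01 with CPX, Cd53 at -1.38 and -0.02, Cd82 at 0.10 and -1.20, and Cd37 at -0.42 and 0.71 (all log2 fold changes). The difference between the perturbations was not tested, since the knockdown contrast was used to pick the family.

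Levels were next compared between the genes per kilobase of annotated exon. The length joined the exons of all annotated transcripts of a gene. No other length was tried, so the order of genes with similar levels may depend on it. Cd53 led in each group. Its level was 694 ± 58.4 RPM per kb with the Pcbp1 hairpin, against 1679 ± 93.4 RPM per kb with the scrambled hairpin (SD, n = 2 each). In the Pcbp1 hairpin libraries the order was Cd53, Cd82, Cd9, Cd81, Cd37, Cd151 and Cd63, and no neighbours overlapped. In the scrambled libraries Cd9 stood below Cd81, at 6.24 ± 2.09 RPM per kb, and the ranges of the pair overlapped. Cd53 made up 76.2% to 77.7% of the summed level of the 7 genes with the Pcbp1 hairpin, against 93.2% to 93.3% with the scrambled hairpin. Cd9 made up 7.42% to 9.85% of it with the Pcbp1 hairpin, against 0.275% to 0.412% with the scrambled hairpin.

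The sum itself was 840 and 965 RPM per kb with the Pcbp1 hairpin, against 1730 and 1872 RPM per kb with the scrambled hairpin. The ratio of Cd53 to Cd9, per kb, was 10.5 and 7.74 with the Pcbp1 hairpin, against 339 and 226 with the scrambled hairpin. With CPX the order was Cd53, Cd82, Cd9, Cd37, Cd81, Cd151 and Cd63, and Cd82 overlapped Cd9, as Cd81 did Cd151. With DMSO the order was the same and no neighbours overlapped. The sum was 884 and 1122 RPM per kb with CPX, against 1152 and 1102 RPM per kb with DMSO, and these groups overlapped. The ratio of Cd53 to Cd82, per kb, was 4.69 and 9.89 with CPX, against 3.12 and 2.87 with DMSO.

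**Figure D3:**
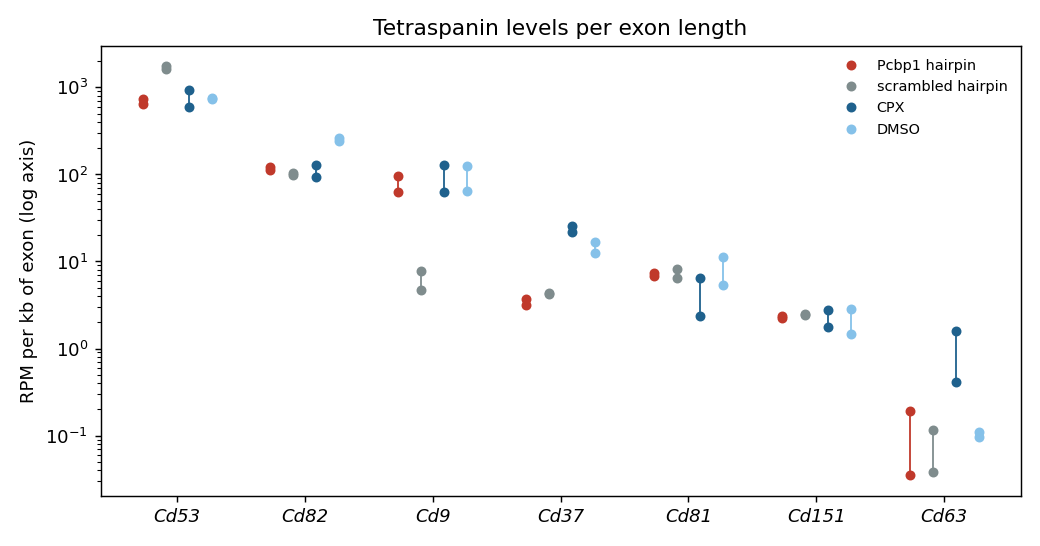
Level of each tetraspanin in RPM per kilobase of exon (log axis), with 1 point per library and a line joining the libraries of a group. Cd53 led in each group, and Cd9 stood at 62.3 and 95.0 RPM per kb with the Pcbp1 hairpin against 4.76 and 7.72 RPM per kb with the scrambled hairpin.

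The genes with the profile nearest to that of Cd9 were sought among 10430 genes expressed in both experiments. Each library's log2(RPM + 0.5) was centred on the mean of its experiment, and likeness was the root mean square difference over the 8 libraries. The nearest were Gopc (0.47, Pearson r 0.95), a Golgi protein, Ddx21 (0.50, r 0.98), an RNA helicase of the nucleolus, the pseudogene Rps16-ps2 (0.51, r 0.95), Hnrnpm (0.53, r 0.97), a splicing regulator, and the predicted gene Gm9892 (0.57, r 0.91). Ddx21 had 853 and 1010 RPM with the Pcbp1 hairpin, against 167 and 161 RPM with the scrambled hairpin. It had 1464 and 998 RPM with CPX, against 1693 and 1367 RPM with DMSO. That these genes share the pattern of Cd9 follows from how they were found.

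**Figure D4:**
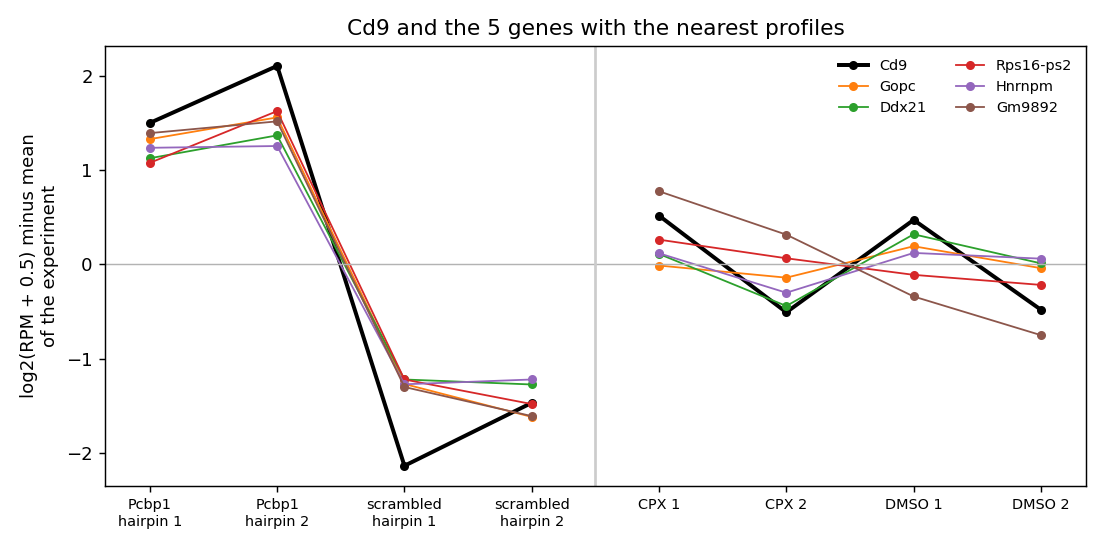
Centred log2(RPM + 0.5) of Cd9 (black) and the 5 genes with the smallest root mean square difference from it, by library. The 5 genes were picked for this shape, high with the Pcbp1 hairpin and low with the scrambled hairpin, and their log2 fold changes were 2.40 to 2.94 with the Pcbp1 hairpin over the scrambled hairpin and -0.33 to 1.09 with CPX over DMSO.

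Among the other tetraspanins, Tspan5 and Tspan14 rose after the knockdown. Both belong to the TspanC8 group, which escorts the protease ADAM10 to the cell surface. Of 24 listed genes 11 were tested, of which 2 rose, 0 fell and 9 did not pass, with a median log2 fold change of -0.14 beside 0.00 for all genes, of which 56.0% were called. Tspan5 had 66.5 and 72.7 RPM with the Pcbp1 hairpin, against 20.5 and 19.8 RPM with the scrambled hairpin (log2 fold change 1.68, SE 0.09, edgeR, adjusted p = 1.73e-05). Tspan14 had 21.4 and 21.6 RPM with the Pcbp1 hairpin, against 9.67 and 11.7 RPM with the scrambled hairpin (0.90, SE 0.13, edgeR, adjusted p = 8.65e-04). Adam10 itself had 200 and 192 RPM with the Pcbp1 hairpin, against 174 and 153 RPM with the scrambled hairpin, and did not pass (0.16, edgeR, adjusted p = 0.104).

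With CPX, 10 other tetraspanins were tested, of which 3 rose, 2 fell and 5 did not pass, with a median log2 fold change of 0.79 beside -0.12 for all genes, of which 44.7% were called. Tspan3 had 7.87 and 12.8 RPM with CPX, against 27.7 and 45.7 RPM with DMSO (-1.77, SE 0.40, limma, adjusted p = 0.0174). Tspan4 had 2.61 and 0.832 RPM with CPX, against 6.61 and 9.87 RPM with DMSO (-2.08, SE 0.50, limma, adjusted p = 0.0210). Tspan14 rose here too, with 52.6 and 71.7 RPM with CPX, against 26.3 and 33.1 RPM with DMSO (1.04, SE 0.28, limma, adjusted p = 0.0305). Upk1a (1.29, limma, adjusted p = 0.0243) was the other gene named by the rule, with 3.33 and 3.48 RPM with CPX, against 0.814 and 1.43 RPM with DMSO, and Tspan13, at 1.07, was the third rise. Upk1a passed the filter only through CPX and Tspan4 only through DMSO, the group where each was high, so the filter favoured the direction found for either. The Upk1a call was lost without any one of the 4 libraries. Without DMSO replicate 1 fewer of these genes were called by limma, and without DMSO replicate 2 their calls were lost. Fewer of all genes were called in these fits too.

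Among frequent partners of tetraspanins, the integrin chains Itgb1 and Itgb2 rose after the knockdown. All 25 listed partner genes were tested after the knockdown, of which 12 rose, 4 fell and 9 did not pass, with a median log2 fold change of 0.36 beside 0.00 for all genes, of which 56.0% were called, 29.3% upward and 26.7% downward. Itgb1, the beta chain shared by the VLA integrins, had 242 and 252 RPM with the Pcbp1 hairpin, against 90.1 and 79.3 RPM with the scrambled hairpin (1.44, SE 0.08, edgeR, adjusted p = 1.49e-05). Itgb2, the beta chain of LFA-1, had 159 and 164 RPM with the Pcbp1 hairpin, against 71.2 and 78.4 RPM with the scrambled hairpin (1.00, SE 0.07, edgeR, adjusted p = 3.66e-05). Cd2, an adhesion receptor, had 263 and 309 RPM with the Pcbp1 hairpin, against 500 and 619 RPM with the scrambled hairpin (-1.08, SE 0.12, edgeR, adjusted p = 2.56e-04). Ifitm2, of the interferon-induced membrane proteins that restrict viruses, fell too, with 39.9 and 40.6 RPM with the Pcbp1 hairpin, against 60.5 and 59.9 RPM with the scrambled hairpin (-0.69, SE 0.08, edgeR, adjusted p = 2.35e-04).

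With CPX, 25 partner genes were tested, of which 4 rose, 8 fell and 13 did not pass, with a median log2 fold change of -0.48 beside -0.12 for all genes, of which 44.7% were called, 19.9% upward and 24.8% downward. Itgb3, the beta chain of the vitronectin receptor, had 45.7 and 20.2 RPM with CPX, against 1.88 and 1.84 RPM with DMSO (3.71, SE 0.46, limma, adjusted p = 0.00367). Markers of other cell types were higher beside it, Itgam with 49.5 and 25.5 RPM with CPX, against 1.58 and 1.69 RPM with DMSO, Itgax with 13.3 and 21.7 RPM with CPX, against 1.17 and 1.28 RPM with DMSO, and Itga2b with 2.76 and 11.8 RPM with CPX, against 0.814 and 0.563 RPM with DMSO. Cd68, Emr1 and Zbtb46 of the same marker lists were higher with CPX too. Others were near 0. Mean signals in the authors' deposited table for CPX, in normalized reads and not RPM, were 1.77 for Csf1r and 0.259 for Lyz2. Clec9a, Siglech, Pf4 and Ppbp had 0 there. The part of such cells in the Itgb3 value was not tested. Epcam, a homophilic adhesion molecule, had 117 and 108 RPM with CPX, against 26.1 and 18.8 RPM with DMSO (2.32, SE 0.26, limma, adjusted p = 0.00314). Cd6 and Cd5, related receptors that dampen T cell receptor signalling, fell by 2.79 (SE 0.22, limma, adjusted p = 0.00241) and 2.25 (SE 0.32, limma, adjusted p = 0.00473) on the log2 scale. Itgb1 fell with CPX, at 111 and 59.8 RPM, against 276 and 263 RPM with DMSO (-1.72, SE 0.33, limma, adjusted p = 0.0106), and Itgb2 did not pass (0.44, limma, adjusted p = 0.260). Itgb1 was added here after its values were seen. Fewer partner genes were called without DMSO replicate 1 or 2, as was so among all genes.

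The last list held genes that form and release extracellular vesicles, of which Vps4b, Hgs and Pdcd6ip rose and Sdcbp fell after the knockdown. Of 15 listed genes 13 were tested after the knockdown, of which 6 rose, 3 fell and 4 did not pass, with a median log2 fold change of 0.23 beside 0.00 for all genes, of which 56.0% were called. Vps4b, an ATPase that recycles the ESCRT machinery, had 121 and 124 RPM with the Pcbp1 hairpin, against 53.3 and 47.6 RPM with the scrambled hairpin (1.17, SE 0.07, edgeR, adjusted p = 2.60e-05). Hgs, which sorts ubiquitinated cargo on endosomes, rose by 1.03 (edgeR, adjusted p = 2.26e-04), and Pdcd6ip, which encodes ALIX, rose by 0.67 (edgeR, adjusted p = 2.81e-04). Sdcbp, which encodes syntenin, an adaptor that links cargo to ALIX, had 167 and 178 RPM with the Pcbp1 hairpin, against 227 and 239 RPM with the scrambled hairpin (-0.54, SE 0.07, edgeR, adjusted p = 4.16e-04).

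With CPX, 13 vesicle genes were tested, of which 4 rose, 2 fell and 7 did not pass, with a median log2 fold change of 0.01 beside -0.12 for all genes, of which 44.7% were called. Sdcbp had 366 and 348 RPM with CPX, against 123 and 132 RPM with DMSO (1.48, SE 0.19, limma, adjusted p = 0.00390). Rab7, a GTPase of late endosomes, also rose by 1.48 (limma, adjusted p = 0.00534), and Chmp4b, an ESCRT-III subunit, rose by 1.27 (limma, adjusted p = 0.00680), a call lost without DMSO replicate 1 (1.09, adjusted p = 0.0613). Rab27a, a GTPase of granule and vesicle release, had 46.6 and 46.9 RPM with CPX, against 137 and 229 RPM with DMSO (-1.91, SE 0.30, limma, adjusted p = 0.00628). Without DMSO replicate 1 or 2 fewer vesicle genes were called, as was so among all genes.

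**Figure D5:**
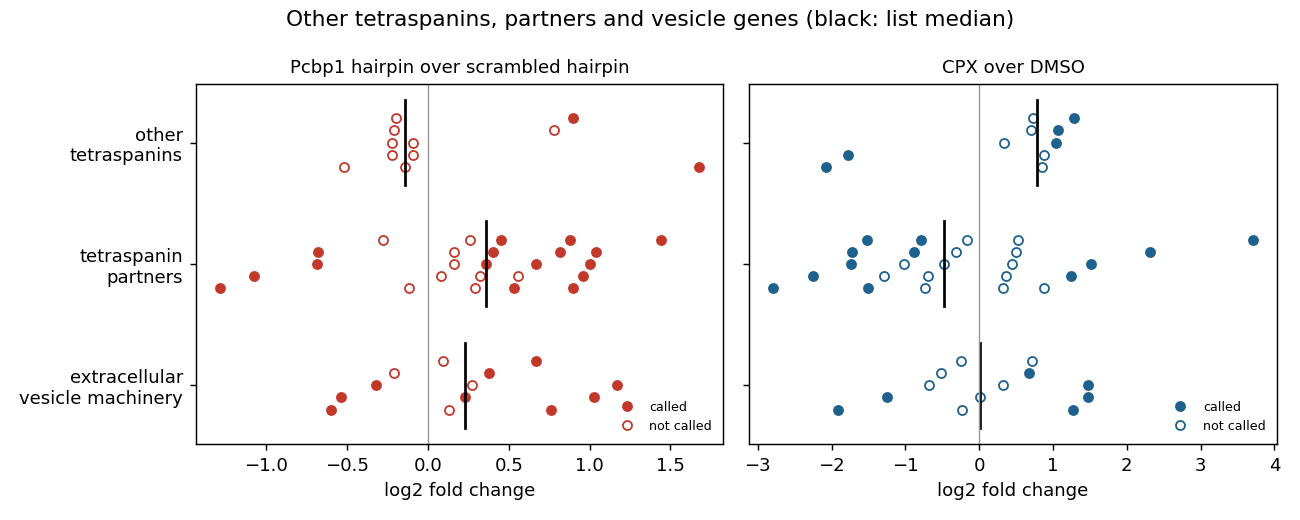
Log2 fold changes (horizontal axes) of each tested gene of the other tetraspanins, the tetraspanin partners and the vesicle machinery, with filled points for called genes and a black line at the list median. The partner median was 0.36 with the Pcbp1 hairpin over the scrambled hairpin and -0.48 with CPX over DMSO.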

How the data were processed

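RNA sequencing of 8 libraries was analysed. Per the submitters' processing notes, cutadapt, STAR, HTSeq and DESeq were used with mouse build mm9, without versions, roles or annotation. In the deposited per-library table, named RPM, the knockdown columns hold raw counts (1 size factor per library turns them into the authors' means) and the CPX columns a score, counts rescaled by a common factor and rounded by the authors, from which no whole reads were recovered. The authors' comparison tables, with DESeq2's columns per the file headers, give a mean signal, log2 fold changes with SEs, a Wald score and p-values. Labels after a line with the constant 23487630 are displaced. Of 14805 lines with a value of at least 10, 14455 were given to the gene whose mean signals they produce (relative tolerance 2e-09 for the knockdown, absolute tolerance 1.2 for CPX) and 350 were ambiguous and left out. The 7 members stand before that line.

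RPM was computed from library totals without the constant line. Genes that reached 1 RPM in 2 or more of an experiment's 4 libraries entered edgeR 4.0.16 (quasi-likelihood, TMM) on counts and, for CPX, limma 3.58.1 (trended variance) on log2(RPM + 0.5), in R 4.3.3, and a call means an adjusted p (Benjamini-Hochberg, all genes) under 0.05. SEs of the knockdown were worked back from F. Both fits were run on simulated data with far fewer changed genes than were called here. For the CPX fit the simulated spread was also smaller than that between the CPX replicates. The check gives no error rate for these data. Exon lengths are from GENCODE M21 and promoters from RefSeq, both of GRCm38 and so of another build than mm9. DESeq2 1.42.0 was an alternative. Members, lists and tests were chosen with earlier results of these data known. Some listed genes were left out of the lists afterwards and are not reported here. All members are named, with up to 4 called genes of smallest p per list and comparison.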

Additional observations from a re-analysis of the deposited data

How the results depend on the processing

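After the knockdown, 3 tetraspanins and 6482 genes were called, and between 5518 and 5775 genes without 1 library. DESeq2 called 5111 genes, and 6352 were called with no filter. With the replicate number as a block the count was 7348, with CPX it was 5651, and 4 other tetraspanins in place of 2 were called after the knockdown. Deviations of same-numbered libraries correlated at 0.289 in the hairpin experiment and 0.101 in the CPX experiment, but the labels do not say whether a number marks a shared culture, so the block was not used for the reported values. With the block the SE of Cd9 after the knockdown was 0.08 in place of 0.26. Between 2535 and 5512 genes were called for CPX without 1 library. The count of tetraspanins called with CPX, 2, was 3 with TMM scaling, 1 with a pseudocount of 2, with a filter of 5 RPM and with no filter, 0 without DMSO replicate 2, 1 without DMSO replicate 1 or CPX replicate 1, and 2 without CPX replicate 2, where Cd63 was not tested. Signs that turned with CPX, all of values that did not pass, were those of Cd9 without DMSO replicate 2 (-0.47) or CPX replicate 1 (-0.51), Cd53 with TMM scaling (0.11) or without CPX replicate 1 (0.31), and Cd151 without DMSO replicate 1 (-0.34) or CPX replicate 2 (-0.20). Without 1 library Cd9 ranged over -0.51 to 0.52, Cd53 over -0.34 to 0.31 and Cd151 over -0.34 to 0.52. The cause was not tested. After the knockdown, 50 member values lay within 1 SD of replicates of the value reported and 10 moved further, and the sign of Cd81, -0.16, turned without scrambled replicate 2 (0.02). Depth limits Cd63, at 2 to 10 reads per hairpin library.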

Other observations

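Cd9 varied more between replicates than most genes did, in every group. The higher replicate of Cd9 was 1.52-fold above the lower with the Pcbp1 hairpin and 1.62-fold with the scrambled hairpin, where the median gene differed by 1.09-fold. It was 2.04-fold above with CPX, where the median gene differed by 1.34-fold, and 1.94-fold above with DMSO, where the median was 1.14-fold. Among genes with at least 1 RPM in both libraries, the ratio was smaller than that of Cd9 for 96.8%, 98.1%, 85.7% and 95.2% of genes in the Pcbp1 hairpin, scrambled hairpin, CPX and DMSO groups. Cd81 had a wider spread than Cd9 in the CPX experiment, 2.71-fold with CPX and 2.09-fold with DMSO, and Cd151 had 1.91-fold with DMSO. The spread of Cd9 followed the replicate number, with replicate 2 the higher in both hairpin groups and replicate 1 the higher with CPX and with DMSO. The ratio for Cd53 was smaller, with 1.13-fold for the Pcbp1 hairpin, 1.08-fold for the scrambled hairpin, 1.56-fold for CPX and 1.02-fold for DMSO.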
